A study of Mus musculus with 4 samples.

Results

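Splicing factor and heterogeneous nuclear ribonucleoprotein (hnRNP) genes were followed in mouse 4T1Br cells with and without knockdown of YTHDF3. The set was chosen by gene symbol alone: the SR proteins, the hnRNP proteins, the SF3A and SF3B subunits, the U2AF proteins, the U snRNP proteins and the CELF, RBFOX and MBNL regulators. 4T1Br is a subline of the mammary tumour line 4T1 that homes to the brain. The set held 78 of the 41345 probe sets of the array, which stood for 59 of 22180 named genes. One further hnRNP gene was left out and is not analysed here. Cells were transduced with a lentivirus for a control hairpin (shControl, 2 arrays) or for a hairpin against YTHDF3 (shYTHDF3, 2 arrays), and both groups were selected with puromycin. Total RNA was hybridised to Affymetrix arrays, and each value is 1 log2 expression level per probe set and array. The labels name the line 4T1 in the titles and 4T1Br elsewhere. No hairpin sequence, number of hairpins or cloning step is stated in the labels. Whether the arrays of a group came from separate cultures is not stated either, so every p-value rests on a spread that may be technical.

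Splicing removes introns from nuclear transcripts. U1 snRNP marks the 5′ splice site, U2AF marks the 3′ splice site and recruits U2 snRNP with its SF3A and SF3B subunits, and the U4, U5 and U6 particles then complete the spliceosome. SR proteins mostly favour the use of nearby exons and hnRNP proteins often oppose it, while CELF, RBFOX and MBNL proteins bind short motifs and set tissue patterns of exon choice. YTHDF3, the knocked-down protein, reads N6-methyladenosine (m6A) on messenger RNA in the cytoplasm. Several members touch m6A in the nucleus: HNRNPC binds RNA that m6A has unfolded, and SRSF3 and SRSF10 are partners of the nuclear reader YTHDC1. Whole-gene probe sets read the amount of a factor's RNA and do not show which exons that factor selects.

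The targeted transcript was lower on both knockdown arrays. Ythdf3 was at 8.98 and 8.81 on the shControl arrays against 8.21 and 8.16 on the shYTHDF3 arrays, a log2 difference of -0.71 (SE 0.10, limma adjusted p = 0.0355). That call was lost without the filter on dim probe sets (limma adjusted p = 0.0866), over all probe sets (0.188) and with the replicate block (0.0758). In those settings limma called 43 of 22180 genes, 0 of 21867 probe sets and 51 of 13056 genes, against 356 genes in the main fit. The Ythdf3 call was also lost with any 1 array left out, where the difference was -0.79 to -0.63. Its sign was kept throughout. Median levels over all probe sets ran from 4.42 to 4.47 on the 4 arrays, and the correlation between any 2 arrays from 0.984 to 0.989. Of 6 epithelial markers measured, 4 had a mean above the background level (4.28, which 95% of olfactory receptor probe sets stay under), among them the luminal keratin gene Krt8 at 10.04 to 10.45, while Epcam (3.80 to 4.05) and Krt14 (3.63 to 4.07) did not. The list's mean level was 6.58 to 6.60 in shControl and 6.66 to 6.69 in shYTHDF3. Of the leukocyte markers, Ptprc was not above background on average and Cd68 was (7.30 and 7.57, then 6.62 and 6.82), 1 of 5 in all, with mean levels of 4.23 to 4.32 and 4.11 to 4.16. All 5 fibroblast markers were above background on average, at mean levels of 5.68 to 5.95 and 5.66 to 5.73, and 1 of them was called lower. Their means ran from 4.28 for Col3a1, barely above background, to 9.17 for Pdgfra, with Pdgfrb next at 5.31. Of 4 endothelial and 5 neural or glial markers, 1 and 2 were above background. The part of other cells in the results was not tested, and the arrays read RNA of whole cultures, so fewer cells with a transcript and less of it per cell cannot be told apart.

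No splicing factor or hnRNP gene passed the test between the groups. Of the 59 genes, 54 had a mean above the background level and were tested, and limma called 0 of them at an adjusted p under 0.05, where 2.73% of all 13056 genes tested were called. In 54 of 54 both group means were above that level, so none entered through one group alone. At an unadjusted p under 0.05, limma had 3 members above their controls and 0 below, 5.56% of the set, against 22.6% of all genes. With the variance allowed to follow the intensity that count was 11 of 54, so the share depends on the variance model. The matching share of all genes was not computed there. The lowest limma adjusted p of any member was 0.0862. With all 4 arrays, the number of called members was also 0 except in the 2 settings that let the variance follow the intensity. Each of those 2 called U2af1l4 and Mbnl1. A 0 says little where limma called few genes at all. It called 43 of 22180 genes when dim genes were kept, 51 of 13056 with the replicate block and 0 of 21867 probe sets. In the remaining 4-array settings it called 361 to 488 genes. Fits with 1 array left out cannot decide this, because few residual degrees of freedom remain. With an intensity trend and no robust estimation, 2 of 54 members were called higher and 0 lower, against 5.59% and 5.33% of all genes (10.9% together).

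The differences were small and evenly signed. They ran from -0.22 to 0.66 on the log2 scale with a median of -0.0015, beside 0.0057 over all genes tested, and 27 members were above 0 and 27 below. Applying quantile normalization once more gave 33 above and 21 below, and a common median gave 32 and 22. The median absolute difference was 0.107 in the set and 0.148 over all genes, and differences beyond 0.25 were found in 3 members (5.56%) against 27.5% of all genes. Replicates of these genes also lay closer together: the median gap between the 2 shControl arrays was 0.073 for members and 0.126 for all genes, and between the 2 shYTHDF3 arrays 0.079 and 0.107. The members were also bright, with a median level of 9.01 to 9.09 by array, beside 6.29 to 6.34 over all probe sets above background. Whether brightness accounts for their smaller differences and gaps was not tested. Both shYTHDF3 values were above both shControl values in 13 members (28.3% of all genes) and below in 13 (25.7% of all genes), together 48.1% of the set and 54.0% of all genes. The 95% interval of limma's difference lay within 0.5 of 0 for 49 members (90.7%; 63.2% of all genes) and within 1 for 53.

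**Figure D1:**
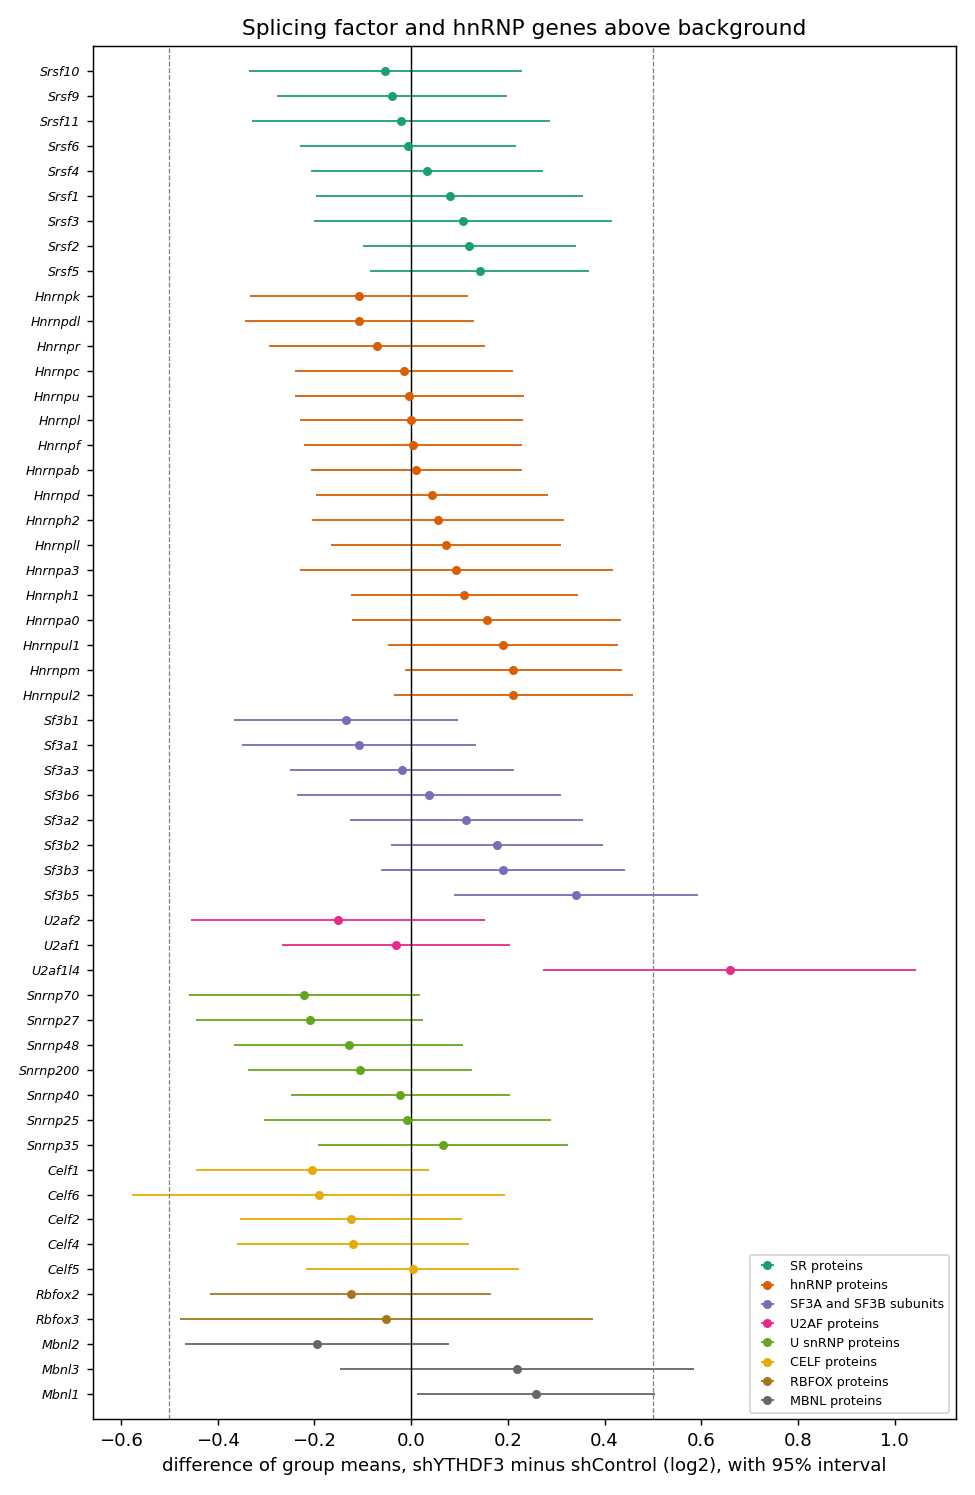
Difference of group means (shYTHDF3 minus shControl, log2) for the 54 genes above background, grouped by family, with limma's 95% interval as bars and dashed lines at 0.5 on either side of 0. The interval of U2af1l4, from 0.27 to 1.04, is the farthest from 0, and 49 of the 54 lie between the dashed lines.

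**Figure D2:**
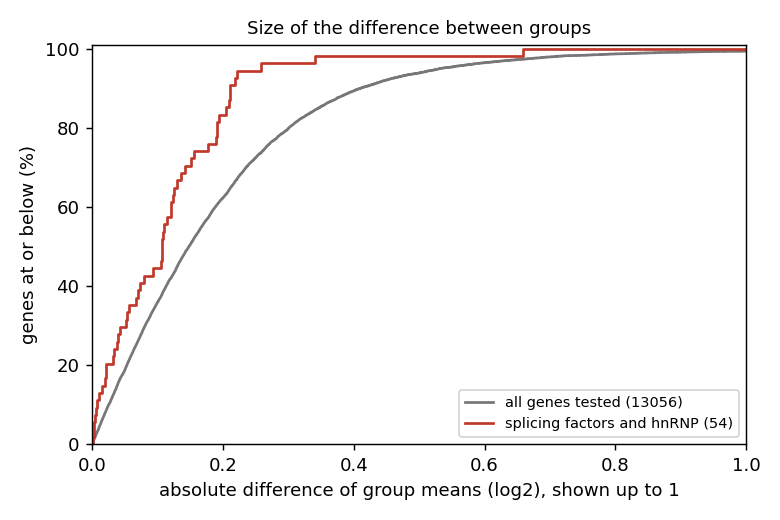
Cumulative share of genes (vertical axis, %) by the absolute difference of group means (horizontal axis, log2, shown up to 1) for the 54 splicing factor and hnRNP genes and for all 13056 genes tested. The line of the splicing genes lies to the left, with medians of 0.107 and 0.148.

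SR proteins carry an RNA recognition motif and a tail rich in arginine and serine. All 9 tested SR genes stayed short of the test, with differences from -0.05 to 0.14 and every 95% interval within 0.5 of 0. Srsf5 stood highest, at 9.64 and 9.58 on the shControl arrays, then 9.72 and 9.78 on the shYTHDF3 arrays, a difference of 0.14 (SE 0.09, limma adjusted p = 0.416). Srsf2, which encodes the speckle protein SC35, read 11.53 and 11.51 and then 11.66 and 11.62 (difference 0.12). Srsf5 and Srsf2 were the 2 SR genes whose groups did not overlap, both with shYTHDF3 above. They made up 22.2% of the SR genes tested, against 28.3% of all genes with shYTHDF3 above and 54.0% without overlap in either direction. The partners of the nuclear m6A reader overlapped between groups. Srsf3, which also serves as an adaptor for mRNA export, read 7.73 and 7.67 and then 7.95 and 7.66, so that 1 knockdown array was high and the other at the control level (difference 0.11, 95% interval -0.20 to 0.42, limma adjusted p = 0.660). Srsf10, which represses splicing when it loses its phosphates, had the lowest difference of the family: 7.90 and 7.73 became 7.85 and 7.67 (-0.05, 95% interval -0.34 to 0.23, limma adjusted p = 0.825). Srsf1, the founding member, read 10.34 and 10.11 and then 10.32 and 10.29. The remaining Srsf4, Srsf6, Srsf9 and Srsf11 differed by -0.04 to 0.03.

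The hnRNP proteins coat nascent transcripts and steer splicing, stability and export. Of 17 tested, 12 were above 0 and 5 below, with a median of 0.04, and every 95% interval again lay within 0.5 of 0. Hnrnpul2, a relative of the scaffold protein gene Hnrnpu, stood highest: it read 8.75 and 8.59 in shControl, then 8.88 and 8.87 in shYTHDF3 (0.21, SE 0.10, limma adjusted p = 0.278). The difference was 0.13 without shControl 2 and 0.29 without shControl 1. Hnrnpm, which encodes a binder of GU-rich RNA, read 10.44 and 10.37 and then 10.61 and 10.63, a difference of the same size (0.21, SE 0.09, limma adjusted p = 0.242). Hnrnpul1, the other relative of Hnrnpu, read 10.73 and 10.65 and then 10.93 and 10.83 (0.19). In these 3 genes both knockdown arrays lay above both controls and the difference exceeded the gap between replicates. A difference beyond that gap was found in 5 of the 17 (29.4%), with Hnrnpk and Hnrnpr lower in shYTHDF3, and in 42.5% of all genes tested. Groups did not overlap in 8 of the 17 (5 above, 3 below), or 47.1%, against 54.0% of all genes. Hnrnpu itself read 11.68 and 11.56 and then 11.63 and 11.59, with overlapping groups.

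Hnrnpk, whose protein binds C-rich RNA through KH domains, stood lowest of the family by its brightest probe set, at 11.63 and 11.56 and then 11.51 and 11.47 (-0.11, SE 0.09, limma adjusted p = 0.531). Hnrnpdl read 9.38 and 9.44 and then 9.36 and 9.25, also -0.11. Hnrnpc, which packages nascent RNA along uridine tracts, hardly differed: 10.39 and 10.46 became 10.39 and 10.42 (-0.02, 95% interval -0.24 to 0.21, limma adjusted p = 0.946). Hnrnpab, at 12.06 to 12.08 on all 4 arrays, Hnrnpl and Hnrnpf all differed by 0.00 to 0.01. Hnrnpl encodes a binder of CA repeats and Hnrnpf a binder of G tracts. The other 7 hnRNP genes differed by -0.07 to 0.16.

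**Figure D3:**
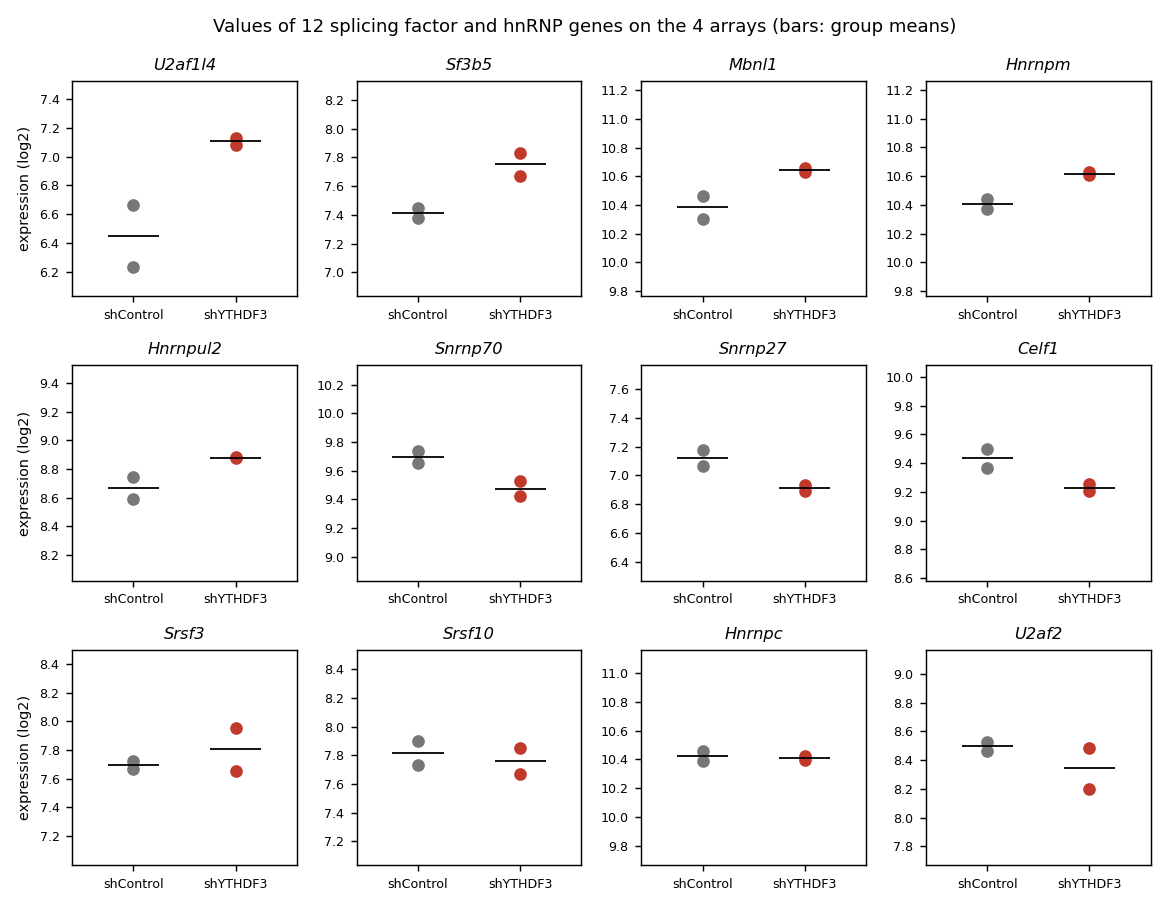
Log2 expression of 12 splicing factor and hnRNP genes on the 2 shControl arrays (grey) and the 2 shYTHDF3 arrays (red), with bars at the group means and a vertical axis of equal span in every panel. U2af1l4, Sf3b5 and Mbnl1 are higher on both knockdown arrays, Snrnp70, Snrnp27 and Celf1 are lower on both, and Srsf3, Srsf10, Hnrnpc and U2af2 overlap.

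SF3A and SF3B hold U2 snRNP on the branch site. Of the 8 subunit genes tested, 5 were above 0 and 3 below. Groups did not overlap in 6 (75%), against 54.0% of all genes tested (4 above, 2 below, against 28.3% and 25.7%). Sf3b5, a small subunit, read 7.38 and 7.45 in shControl, then 7.67 and 7.83 in shYTHDF3. It was higher on both knockdown arrays by 0.34 (SE 0.10, 95% interval 0.09 to 0.59), 1.27-fold, and did not pass (limma adjusted p = 0.134). Sf3b2 had a shControl mean of 8.99 and then read 9.16 and 9.18 (0.18), with the least gap between replicates of any subunit that stood apart. Sf3b3 read 9.53 and 9.63 and then 9.84 and 9.70 (0.19). Sf3b1, the scaffold that is recurrently mutated in some cancers, went the other way, at 10.65 and 10.57 and then 10.51 and 10.43 (-0.14, SE 0.09, limma adjusted p = 0.444). Of SF3A, Sf3a1 differed by -0.11, Sf3a2 by 0.11 and Sf3a3 by -0.02, and Sf3b6, whose protein contacts the branch site, differed by 0.04. Subunits of the same complex thus differed in sign, and each stayed short of the test.

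U2AF is a dimer in which U2af2 binds the polypyrimidine tract and U2af1 the AG of the 3′ splice site. Neither subunit separated the groups. U2af1 read 8.44 and 8.34 and then 8.32 and 8.40 (-0.03), and U2af2 read 8.46 and 8.53 and then 8.20 and 8.49 (-0.15, SE 0.12, limma adjusted p = 0.511). Without shYTHDF3 1 the U2af2 difference was -0.0093, and without shYTHDF3 2 it was -0.29. U2af1l4 encodes U2AF26, a paralog of U2af1, and had the largest difference of the whole set. Its values were 6.67 and 6.23 on the shControl arrays, then 7.08 and 7.13 on the shYTHDF3 arrays, a difference of 0.66 (SE 0.16, 95% interval 0.27 to 1.04), 1.58-fold, and missed the threshold (limma adjusted p = 0.0862). Both knockdown arrays were higher than both controls, and the controls lay 0.44 apart. The difference was 0.44 without shControl 2 and 0.88 without shControl 1. A second U2af1l4 probe set, close to background, read 4.35 and 4.44 and then 4.65 and 4.36, and the mean of both differed by 0.39. Another probe set, annotated to both U2af1l4 and its neighbour Igflr1, read 4.90 and 5.13 and then 5.03 and 4.84.

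In RefSeq's annotation of GRCm38.p6 U2af1l4 starts head to head with Psenen, which encodes a subunit of gamma-secretase and was looked at after the values of U2af1l4 were seen. The 135 bases between the U2af1l4 start, on the plus strand, and the nearer Psenen start, on the minus strand, lie at chr7:30563205-30563339 and are shown because the transcripts on both sides were higher in shYTHDF3. They are given on the plus strand, with capitals for the 1 match to the core CGGAAG of ETS factor sites.
U2af1l4 and Psenen interval: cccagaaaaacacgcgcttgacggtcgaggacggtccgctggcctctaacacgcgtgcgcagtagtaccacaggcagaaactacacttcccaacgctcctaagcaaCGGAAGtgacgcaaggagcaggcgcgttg
Psenen read 10.73 and 10.69 in shControl, then 11.26 and 11.17 in shYTHDF3 (0.50, SE 0.09, limma adjusted p = 0.0550), and a second Psenen probe set differed by 0.33. Both genes were thus higher on both knockdown arrays without passing the test. Another annotated start of Psenen lies inside U2af1l4, so the gene spans overlap in part, and how much each probe set reads of its neighbour was not tested.

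The U snRNP proteins are the particle-specific proteins of the spliceosome. Of 7 tested, 6 were below 0 and 1 above, with a median of -0.11. The groups of 4 (57.1%) did not overlap, all with shYTHDF3 below. Over all genes tested, 25.7% were below in this way and 54.0% did not overlap in either direction. Snrnp70, the U1 protein that helps define the 5′ splice site, was the lowest of the set: 9.65 and 9.74 on the shControl arrays became 9.53 and 9.42, a difference of -0.22 (SE 0.10, 95% interval -0.46 to 0.02, limma adjusted p = 0.248). Snrnp27, of the U4/U6.U5 tri-snRNP, read 7.18 and 7.07 and then 6.89 and 6.94 (-0.21, SE 0.10, limma adjusted p = 0.261). Snrnp48, of the minor U11/U12 particle, had a shControl mean of 8.01, its arrays 0.022 apart, and then read 7.82 and 7.94 (-0.13). Snrnp200, the helicase that unwinds U4 from U6, read 9.22 and 9.21 and then 9.16 and 9.06 (-0.11). Snrnp25 and Snrnp40 differed by -0.01 and -0.02, and Snrnp35, another U11/U12 protein, by 0.07 (4.79 and 4.60, then 4.74 and 4.78). With 1 array left out the Snrnp70 difference stayed between -0.27 and -0.17.

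CELF proteins bind GU-rich elements and several are chiefly neuronal. Celf1, the broadly expressed member, read 9.50 and 9.37 in shControl, then 9.26 and 9.20 in shYTHDF3 (-0.20, SE 0.10, limma adjusted p = 0.281), so both knockdown arrays were lower. Celf2 and Celf4 were likewise below on both arrays, with differences of -0.12 each. Of all genes tested, 25.7% were below on both arrays. Celf5 differed by 0.0031, the highest of the family, and Celf6 read 4.89 and 4.91 and then 4.93 and 4.49, where 1 knockdown array alone was low. The RBFOX proteins bind UGCAUG. Rbfox2, the member found in many epithelia, read 7.96 and 8.22 and then 7.99 and 7.94 (-0.12, SE 0.12, limma adjusted p = 0.572). Rbfox3, which encodes the neuronal antigen NeuN, read 5.16 and 5.66 and then 5.32 and 5.40 (-0.05), with the controls 0.50 apart.

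MBNL proteins bind YGCY motifs and are known as the factors sequestered in myotonic dystrophy. Mbnl1 read 10.46 and 10.30 in shControl, then 10.63 and 10.65 in shYTHDF3. It was higher on both knockdown arrays by 0.26 (SE 0.10, 95% interval 0.01 to 0.51), 1.20-fold, with a limma adjusted p of 0.205, and of 0.0461 and 0.0417 in the 2 settings with an intensity trend. Mbnl3 read 8.33 and 8.01 and then 8.51 and 8.27 (0.22), with overlapping groups. Mbnl2 was the lowest of the 3 by its brightest probe set, at 9.78 and 9.55 and then 9.46 and 9.48 (-0.19, SE 0.11, limma adjusted p = 0.358). That difference ran from -0.31 to -0.081 with 1 array left out, the latter without shControl 1, and was -0.015 as the mean of all probe sets. The 3 paralogs did not share a sign.

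**Figure D4:**
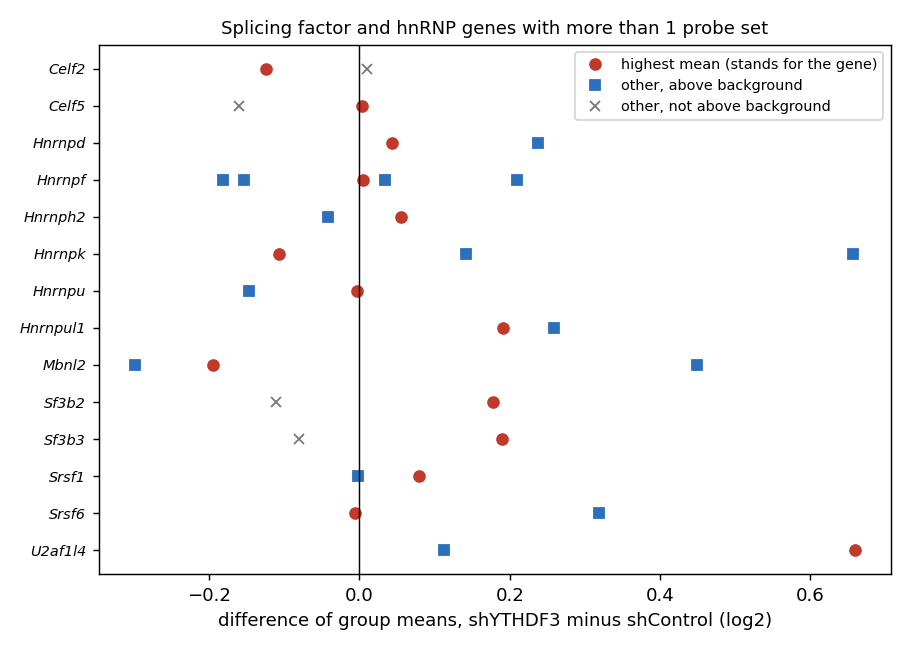
Difference of group means (horizontal axis, shYTHDF3 minus shControl, log2) for every probe set of the 14 splicing factor and hnRNP genes that have more than 1. Circles mark the brightest probe set, squares the others above background and crosses those not above it. Hnrnpk and Mbnl2 spread the most, and both have probe sets on either side of 0.

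Probe sets of the same gene did not always agree, which bears on which value stands for a gene. Of the 59 genes, 14 had more than 1 probe set, and 10 of these had at least 2 above background. In 6 of the 10 the differences had mixed signs and in 4 they had one sign. Signs mix easily where differences are near 0: among the 6, the probe sets of Srsf1 and Hnrnph2 lay only 0.082 and 0.097 apart. The share with mixed signs over all genes was not computed. Hnrnpk differed by -0.11, 0.14 and 0.66 on its 3 probe sets, the last reading 5.58 and 5.24 and then 5.69 and 6.44, where a single knockdown array was high. Mbnl2 differed by -0.19, 0.45 and -0.30, and the middle one read 7.82 and 7.12 and then 7.69 and 8.15, so its groups overlapped. The 5 Hnrnpf probe sets ran from -0.18 to 0.21. The second Srsf6 probe set read 4.83 and 4.56 and then 4.59 and 5.44 (0.32), against -0.01 on the first. The second probe sets of Hnrnpd (0.24), Hnrnpu (-0.15), Hnrnpul1 (0.26), Hnrnph2 (-0.04) and Srsf1 (-0.0019) lay 0.068 to 0.194 from the first. The second probe sets of Celf2, Celf5, Sf3b2 and Sf3b3 were not above background and differed by 0.01, -0.16, -0.11 and -0.08. Genes of these families, the hnRNP genes above all, have many processed copies in the genome, so what a secondary probe set measures is uncertain.

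The 5 genes not above background were Celf3 (3.76 to 4.33), the pseudogene Hnrnpa1l2-ps2 (2.94 to 3.35), Rbfox1 (3.78 to 3.95), Sf3b4 (4.08 to 4.20) and Srsf12 (3.46 to 4.05), against a background level of 4.28. Celf3 and Rbfox1 are chiefly neuronal genes. Sf3b4 is a core SF3B subunit, and its only probe set stayed near the background on all 4 arrays, whereas the probe sets of Sf3b1, Sf3b2, Sf3b3, Sf3b5 and Sf3b6 were all above it. None of these 5 genes was tested. A further 7 probe sets carried several symbols, of which at least 1 fits the set, and entered no test. Hnrnpa1 and Hnrnph3 were read only by such probe sets, so they are not among the 59, and Srsf7 is not analysed here. The 2 probe sets that name Hnrnpa1 with related loci read 11.49 and 11.60, then 11.80 and 11.75, and 12.41 and 12.53, then 12.74 and 12.56. The probe set that names Rufy2 and Hnrnph3 read 7.71 and 7.95, then 8.17 and 8.24. All 3 were higher on both knockdown arrays, against 28.3% of all genes tested. Which of its named genes each probe set reads was not tested.

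Promoter windows of 250 bases before the start, from RefSeq's GRCm38.p6 table, were found for 51 of the 59 genes, 81 windows in all. They were sought for all 59, including the 5 genes not tested. Windows of the genes tested came from 10194 of the 13056. The letters GGGCGG (the GC box), on either strand, were in 65.4% of these windows, 55.9% of windows of all genes tested and 32.7% of all windows. The ETS core CGGAAG was in 32.1%, 23.2% and 13.6%, and TATAAA in 12.3%, 6.95% and 12.4%. The median GC content was 60.4% in windows of the set and 59.6% in those of all genes tested. These shares describe the letters only. Windows of the member with the lowest difference, Snrnp70, and of Mbnl1, which was higher on both knockdown arrays, are printed as examples. Capitals mark GC boxes and ETS cores on either strand, overlapping matches running together. The Snrnp70 window lies on the minus strand at chr7:45395743-45395992 and holds 1 GC box. The Mbnl1 window, of the second of its 2 listed starts, lies on the plus strand at chr3:60500929-60501178 and holds 4 GC boxes and 1 ETS core. The window of the first Mbnl1 start, not printed, holds 0 GC boxes, 0 ETS cores and 2 matches to TATAAA. Which start is used in these cells was not tested.
Snrnp70: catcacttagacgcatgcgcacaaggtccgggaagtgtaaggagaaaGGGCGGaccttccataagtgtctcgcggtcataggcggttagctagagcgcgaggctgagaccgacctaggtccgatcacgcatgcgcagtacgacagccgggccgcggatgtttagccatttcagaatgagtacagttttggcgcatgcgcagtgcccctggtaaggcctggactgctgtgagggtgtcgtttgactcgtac
Mbnl1: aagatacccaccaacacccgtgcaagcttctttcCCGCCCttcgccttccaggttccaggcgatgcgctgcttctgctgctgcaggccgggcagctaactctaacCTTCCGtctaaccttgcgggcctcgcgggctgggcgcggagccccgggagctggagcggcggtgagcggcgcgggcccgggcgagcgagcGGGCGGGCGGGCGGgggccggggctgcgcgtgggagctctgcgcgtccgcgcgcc

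Other genes of the splicing pathway were read alongside, from 5 lists of 111 genes in all. Of the 97 that were above background limma called 1, Smndc1, as lower and 0 as higher, against 1.45% and 1.28% of all genes. Smndc1 encodes SPF30, a Tudor-domain protein of the spliceosome, and read 8.86 and 8.88 in shControl, then 8.37 and 8.31 in shYTHDF3 (-0.53, SE 0.09, limma adjusted p = 0.0478). That call was lost without the filter on dim probe sets, with the replicate block and over all probe sets. In those settings limma called 43 of 22180 genes, 51 of 13056 genes and 0 of 21867 probe sets, against 356 genes in the main fit. The Smndc1 call was also lost with any 1 array left out, where few residual degrees of freedom remain. In the list of splice site partners that held it, the other 12 did not pass, Htatsf1 being highest at 0.30. Of the 97, 6 were higher and 10 lower by unadjusted p under 0.05, against 12.2% and 10.4% of all genes. One of the 6, Rbm24, named after its values were seen, had a shControl mean of 4.07, under the background level, and a shYTHDF3 mean of 4.51. It was tested only through the group where it was high, so the higher counts here and in its list support nothing. The median of the 97 was -0.02.

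Among SR-related proteins and SR kinases limma called 0 of 15, against 2.73% of all genes. At an unadjusted p under 0.05 it had 3 lower and 0 higher, 20% of the list against 22.6% of all genes. Over all genes 10.4% were lower and 12.2% higher. Clk1, a kinase that phosphorylates SR proteins, read 8.77 and 8.52 and then 8.15 and 8.06 (-0.54, SE 0.12, limma adjusted p = 0.0748). Its relative Clk4, named after its values were seen, read 8.10 and 8.06 and then 7.64 and 7.60 (-0.46, SE 0.09, limma adjusted p = 0.0609). Srrm2, a speckle scaffold, was the highest of that list at 0.16. The SR proteins themselves differed by -0.05 to 0.14, as given above. Of 25 PRP and tri-snRNP genes limma called 0 (by unadjusted p under 0.05, 1 higher and 2 lower), from Prpf40b at -0.55 to the helicase gene Dhx38 at 0.35. Of 9 Sm and U snRNP core genes it called 0 (0 higher and 2 lower), from Snrpb at -0.33 to Snrpd1 at 0.17. Of 35 other splicing regulators it called 0 (4 higher, Rbm24 among them, and 2 lower), from Taf15 at -0.35 to the cold-inducible Cirbp at 0.47. The unadjusted counts of these last lists were 12%, 22.2% and 17.1% of their genes, beside 22.6% of all genes. With an intensity trend limma called 10 of the 97, 8 lower and 2 higher, or 10.3%, against 10.9% of all genes. Clk1 and Clk4 were among the 8 lower there (limma adjusted p = 0.0101 and 0.0111), in a setting that called 5.33% of all genes lower.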

How the data were processed

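The deposited table holds 1 log2 value per probe set and array, which the authors normalised with RMA, per the submitters' processing notes, without a stated version. RMA evens out the arrays' distributions and so hides any shift that most genes share. The log2 base was taken from RMA's usual scale and the range of the values. Of 41345 probe sets, the platform annotation gave 23521 a single symbol, 1814 several and 16010 none. All 78 probe sets of the set matched a RefSeq gene by Entrez identifier. Each gene was represented by the probe set with its highest mean. Genes were tested where that mean exceeded 4.28, the 95th percentile of 1108 olfactory receptor probe sets. All 13056 such genes were fitted with limma 3.58.1 (lmFit, eBayes) under R 4.3.3. Tests were two-sided, p-values were adjusted by Benjamini-Hochberg across those genes, and the threshold was 0.05. The step was tested on simulated data with planted changes larger than any difference seen in the set. That test does not show how well changes of the size seen in the set are found.

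The set, the lists and the settings were chosen with earlier results of these data known. The genes named were Ythdf3, Hnrnpc, Srsf3 and Srsf10, every gene past the threshold, the highest and lowest difference of each of 8 families and of each other list, all with several probe sets, and all not above background; further members and Psenen, Clk4 and Rbm24 were named after their values were seen. The alternatives were 3 filters or probe set rules, an intensity trend (also with robust estimation), 2 renormalizations, all probe sets, a replicate block and leaving out each array. Plots came from matplotlib 3.10.9 (Python 3.11.15). Arrays have no read depth, and their number limits the precision.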

Additional observations from a re-analysis of the deposited data

How the results depend on the processing

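With 2 arrays a group, leaving one out left few residual degrees of freedom, and the lone array was assumed to vary like the other group. With all 4 arrays, limma called 0 splicing factor and hnRNP genes in all settings except those with an intensity trend. There it called 2, also with robust estimation. Of all genes it called 43 of 22180 without the filter and 51 of 13056 with the replicate block. Over all probe sets it called 0 of 21867, so a 0 for the members in these settings says little. The members' median difference stayed between -0.020 and 0.028 with 1 array left out. The Ythdf3 difference of -0.71 kept its size but lost its call without the filter (limma adjusted p = 0.0866), over all probe sets (0.188) and with the replicate block (0.0758). That difference ran from -0.79 to -0.63 with any 1 array left out, where the call was lost too. The count of other splicing genes called was 0 without the filter, over all probe sets and with the replicate block. It was 10 with an intensity trend and 11 with robust estimation added, where limma called 1426 and 1465 of all 13056 genes. Some small differences changed sign; the cause was not tested. With the mean of all probe sets Hnrnpk was at 0.23 and Celf5 at -0.078, and Hnrnpc was at 0.036 when quantile normalization was repeated and 0.0050 when medians were equalised. With 1 array left out the differences ran from -0.15 to 0.039 for Srsf10, -0.041 to 0.26 for Srsf3, -0.052 to 0.021 for Hnrnpc, -0.028 to 0.16 for Snrnp35, -0.016 to 0.022 for Celf5, -0.26 to 0.0052 for Rbfox2 and -0.30 to 0.20 for Rbfox3. Whether same-numbered arrays share a culture or batch was not tested. Deviations of same-numbered arrays correlated at -0.066 over all genes tested, which cannot decide this with 2 arrays a group. Limma called 51 of all genes with the replicate block, which costs a residual degree of freedom, and 356 without it.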
